A study of Bos taurus with 6 samples.

Results

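The 15 circular RNAs (circRNAs) of PPARG and PPARGC1A were described in subcutaneous fat of Qinchuan cattle. A circRNA, or circle, is a closed RNA made when the end of a downstream exon is joined backwards to the start of an upstream one, and the reads that cross this joint are its junction reads. The circles were taken by the gene symbol in the deposited annotation, which gave 12 for PPARG and 3 for PPARGC1A among 14274 circRNAs. The study has 6 libraries of fat collected at an abattoir, 3 from calves of 6 months and 3 from adults of 24 months. No treatment or genotype distinguishes the groups. The labels do not say that each library is a separate animal, so p-values measure the spread between these libraries. Because the tissue is bulk fat, fewer cells of a type and less RNA per cell cannot be told apart.

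PPARG is the nuclear receptor that directs the formation of fat cells and holds their lipid storage genes active. It binds DNA as a pair with a retinoid X receptor and recruits coactivators in place of corepressors. PPARGC1A codes for PGC-1α, a coactivator first described as a partner of this receptor in brown fat, where it switches on mitochondrial biogenesis and UCP1, the uncoupling protein of heat production.

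The libraries held 35616 to 47298 junction reads. Values are given as reads or as CPM, junction reads per 1000000 junction reads of the library. A circle is listed only from 2 reads in a library, so a 0 can hide a single read. Of 12 adipocyte marker genes 6 gave a circle, with summed levels of 1424 to 2555 CPM in calves and 1670 to 2677 CPM in adults, while FABP4, LEP, CIDEC, PNPLA2, LIPE and PCK1 were at 0. Most of that sum was CD36. Without it the other 5 had 19, 32 and 35 reads in calves 1, 2 and 3 and 11, 3 and 2 in adults 1, 2 and 3 (511 to 983 CPM against 50.0 to 290 CPM, without overlap), led by GPAM with 8, 22 and 16 against 5, 0 and 2. Of 12 skeletal muscle markers 5 gave a circle, with 297 reads in adult 2 and no more than 3 elsewhere (0 to 80.6 CPM in calves, 0 to 6279 CPM in adults; RYR1, MYH1, MYH2, ACTN2, TRDN and CKM among those at 0). Of 8 immune markers 4 gave a circle, with 53.7 to 674 CPM in calves and 3193 to 12034 CPM in adults (PTPRC, CD14, CSF1R and MRC1 at 0), nearly all from ADGRE1 and CD5L. Of 7 fibroblast markers 4 gave a circle, with 53.7 to 101 CPM in calves and 465 to 1028 CPM in adults (COL1A2, COL3A1 and PDGFRA at 0). VCAN carried it all in adults, and FBN1, COL1A1 and DCN had 2, 2 and 3 reads, from calves alone. Of 7 endothelial markers 6 gave a circle, with 1155 to 1238 CPM in calves and 1351 to 1670 CPM in adults (CDH5 at 0). Without FLT1, the most read of them, the other 5 had 591 to 758 CPM in calves and 926 to 1332 CPM in adults. VWF was read in adults alone, while TEK had 7, 5 and 6 reads in calves and 5, 0 and 8 in adults. The immune and fibroblast differences between the ages thus came from circles of a few genes. The endothelial sum and the adipocyte sum without CD36 each differed without overlap. Among single host genes tested, 18.4% had every adult below every calf, the direction of the adipocyte sum without CD36. The share with every adult above every calf, the direction of the endothelial sum, is not given here. The part of these marker differences in the results below was not tested. Of 4 nerve markers only SOX10 gave a circle (0 to 101 CPM in calves, 0 in every adult), and 5 epithelial markers were all at 0. Circles annotated to HSPA1A, a heat-shock gene, held 4.44% of reads in calf 3 and 1.40% in adult 3 against 0.18% to 0.72% in the other libraries.

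PPARG lies on the minus strand of chromosome 22, and its circles were built from a few splice sites used again and again. The coordinates and exon numbers are those of the deposited annotation (genome build not given in the sources used here). It lists exon 3 (57412783 to 57413011), exon 4 (57410841 to 57411011), exon 6 (57396660 to 57396860) and exon 7 (57384979 to 57385430). Between introns 3 and 4 it leaves a segment of 139 bases unlisted (57402334 to 57402473), although circles begin or end at both of its edges. Both ends fell on a listed boundary in 10 of the 12 circles. The other two were novel_circ_0006818, a circle of 36352 bases in the region upstream of exon 3 (57432059 to 57468411), and novel_circ_0006807, which ended inside the intron after exon 7 (57379069).

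Most PPARG reads entered the circle at exon 4. The upstream edge of exon 4 took part in 63.8% of the gene's 257 junction reads and that of exon 3 in 28.4%. On the downstream side, 60.7% of reads left from exon 6, 18.3% from exon 7 and 16.3% from the unlisted segment. The exon 4 edge was used by 164 reads, 35, 29 and 48 in calves (libraries 1, 2 and 3 in order, here and below) and 22, 20 and 10 in adults. The exon 3 edge was used by 16, 19 and 17 reads in calves and by 5, 14 and 2 in adults. As a share of the gene's reads, the exon 4 edge held 64.4% in calves and 62.7% in adults, and the exon 3 edge 29.9% and 25.3%. The difference between these shares was not tested.

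**Figure D1:**
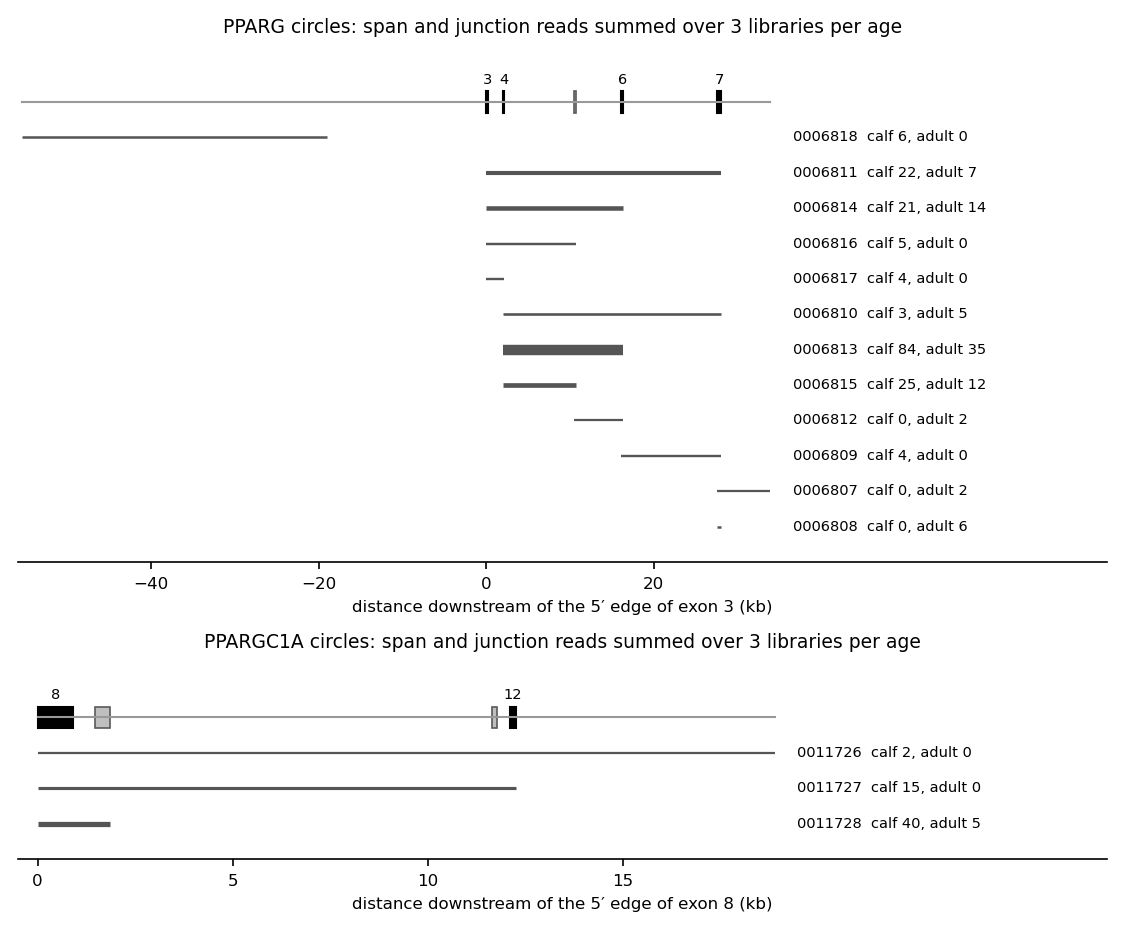
Span of each PPARG circle (top) and PPARGC1A circle (bottom) along the gene in kilobases from the first listed exon, with black boxes for listed exons, grey boxes for segments the annotation leaves unlisted, and line width rising with total reads. The numbers at the right are junction reads summed over the 3 calf and the 3 adult libraries. The exon 4 to exon 6 circle of PPARG is the widest line, with 84 calf and 35 adult reads.

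The most read PPARG circle was novel_circ_0006813, from exon 4 to exon 6 (57396660 to 57411011). It spans 14351 bases of the genome, and its exons with the unlisted segment add up to 509 bases. The deposited spliced length of 14212 bases keeps the introns, so it was not used as the size of the RNA. This circle had 22, 25 and 37 reads in the 3 calf libraries and 14, 13 and 8 in the adult ones. Every adult lay below every calf in CPM, as did 22.6% of the 663 circRNAs tested. It held 46.3% of the PPARG reads. Calves averaged 754 ± 248 CPM and adults 281 ± 84.6 CPM (mean ± SD of 3 libraries). The log2 change was -1.32 ± 0.37 (SE; edgeR quasi-likelihood test, adjusted p = 0.0276), and 10.4% of the circRNAs tested passed as lower. With 8 reads in adult 3, it reached the filter through the calves. The call was lost in each of the 6 fits without 1 library (adjusted p 0.0531 to 0.111) and with DESeq2 (0.112).

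The next 3 PPARG circles overlap it. They had too few reads for the filter, which asks for about 10 reads in 3 libraries, so they have no test. The circle from exon 4 to the unlisted segment (novel_circ_0006815, 57402334 to 57411011) had 10, 4 and 11 reads in calves and 3, 7 and 2 in adults. Calf 2 lay below adult 2, so the ages overlapped. The circle from exon 3 to exon 6 (novel_circ_0006814, 57396660 to 57413011) had 7, 8 and 6 reads in calves and 2, 10 and 2 in adults. Calves kept close together (186 ± 16.9 CPM, SD, n = 3), and adult 2 stood above all of them at 211 CPM. The circle from exon 3 to exon 7 (novel_circ_0006811, 57384979 to 57413011) takes in all 4 listed exons and the unlisted segment, 1188 bases in all. It had 7, 9 and 6 reads in calves and 3, 4 and 0 in adults, without overlap (195 ± 30.0 against 54.5 ± 47.3 CPM, mean ± SD of 3 libraries). The share of 22.6% given above covers tested circRNAs only, and no share was computed for circles with so few reads.

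The remaining 8 PPARG circles had 2 to 8 reads each, 22 in calves and 15 in adults together. The most read of these, novel_circ_0006810 from exon 4 to exon 7, had 3 reads in calf 1 and 5 in adult 1. Of the 12 circles, 3 were read in every library and 5 in 1 library only. Circles of exon 7 alone or with the intron after it (novel_circ_0006808, the only member annotated as exonic alone, and novel_circ_0006807) came from adults, with 6 and 2 reads. The exon 6 and 7 circle (novel_circ_0006809, 4 reads), the exon 3 to unlisted segment circle (novel_circ_0006816, 5 reads) and novel_circ_0006818 (6 reads) came from calf 3 alone. At 2 to 6 reads these differences between ages are not detectable. A library showed 6 ± 1 different PPARG circles in calves and 5.33 ± 0.577 in adults (SD, n = 3 per age; two-sided exact permutation p = 0.7, 0.7 adjusted over 3 such measures, smallest possible p 0.1). With every library thinned to 35616 reads, calves and adults differed by -1.13 circles (adult minus calf; two-sided exact permutation p = 0.3).

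Summed over its 12 circles, PPARG had 51, 48 and 75 reads in the calf libraries and 27, 38 and 18 in the adult ones. Calf 3 was the highest and adult 3 the lowest, and the ages did not overlap in CPM, as for 18.4% of host genes with all adults below all calves. The sum fell by 58.1%, and the log2 change was -1.17 ± 0.32 (SE; edgeR quasi-likelihood test over 719 host genes, adjusted p = 0.0278). Of these host genes 6.54% passed as lower in adults. Without the exon 4 to exon 6 circle the sum was 809 ± 244 CPM in the calf and 374 ± 142 CPM in the adult libraries (mean ± SD of 3). The log2 change was then -1.02 ± 0.38 (SE), short of the threshold (edgeR adjusted p = 0.0932). That circle held 43.1%, 52.1% and 49.3% of PPARG reads in calves and 51.9%, 34.2% and 44.4% in adults, which overlapped (two-sided exact permutation p = 0.6, 0.7 adjusted over 3 measures). The call on the sum was lost without calf 3, adult 1, adult 2 or adult 3 (adjusted p 0.0551 to 0.0905). Without calf 3 and adult 3 together, the highest and the lowest library, the log2 change was -0.66 (edgeR adjusted p = 0.113).

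**Figure D2:**
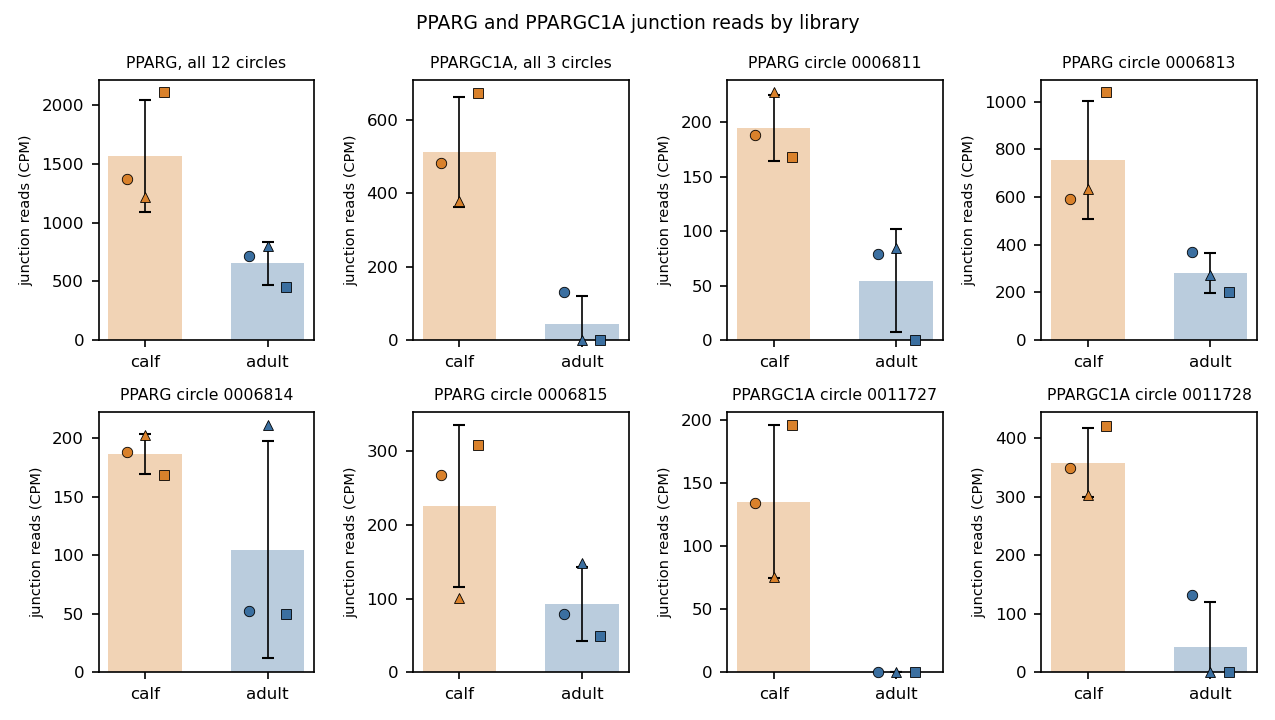
Junction reads (CPM) of both gene sums and of the circles with most reads, by library; circles, triangles and squares are libraries 1, 2 and 3, bars are means and whiskers SD over 3 libraries. The exon 3 to exon 6 circle novel_circ_0006814 is the panel where adult 2, at 211 CPM, stands above all calves, and novel_circ_0011727 is at 0 in every adult.

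PPARGC1A lies on the minus strand of chromosome 6, and all 62 of its junction reads entered the circle at the same place, the upstream edge of exon 8 (44876854). This exon has 919 bases (44875935 to 44876854). The annotation leaves unlisted a segment of 374 bases downstream of it (44874997 to 44875371) and a segment of 122 bases before exon 12 (44865082 to 44865204). The shortest circle, novel_circ_0011728 (44874997 to 44876854), ends with the 374-base segment and held 72.6% of the reads. The second, novel_circ_0011727 (44864599 to 44876854), runs on through exon 12 and held 24.2%. The third, novel_circ_0011726, ended further downstream (44857960), with 2 reads in calf 3.

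The PPARGC1A circles were read in every calf and in 1 adult. The sum was 18, 15 and 24 reads in calves, 5 reads in adult 1, and 0 in adults 2 and 3. Adult 2 held 297 muscle marker reads and adult 3 held 0. A part of muscle in the values of this gene was not tested. Calves averaged 512 ± 149 CPM and adults 43.9 ± 76.1 CPM (mean ± SD of 3 libraries), a ratio of 11.7. The log2 change was -3.49 ± 0.85 (SE; edgeR quasi-likelihood test, adjusted p = 0.0166). It passed the filter through the calves alone. The call was lost with limma-voom (0.0587) and without calf 2, calf 3 or adult 2 (edgeR adjusted p 0.0605 to 0.0678), and the log2 change was -7.32 without adult 1, so its size is uncertain. The difference between the changes of PPARG and PPARGC1A was not tested.

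Among single PPARGC1A circles, novel_circ_0011728 had 13, 12 and 15 reads in calves and 5, 0 and 0 in adults. Calves averaged 358 ± 59.4 CPM and adults 43.9 ± 76.1 CPM (mean ± SD of 3 libraries), a log2 change of -2.96 ± 0.88 (SE) with an edgeR adjusted p of 0.038. It too reached the filter through the calves alone. Of the 6 fits without 1 library it passed only in that without adult 1 (adjusted p = 0.0276), with a log2 change of -6.80. It did not pass in the others (adjusted p 0.111 to 0.16). The exon 8 to exon 12 circle novel_circ_0011727 had 5, 3 and 7 reads in calves and 0 in every adult. Against a floor of 3 reads per adult library (72.5 CPM on average) it was at least 1.87-fold lower in adults, a bound that covers counting error in the adults only. A library showed 2.33 ± 0.577 different PPARGC1A circles in calves and 0.333 ± 0.577 in adults (SD, n = 3 per age; two-sided exact permutation p = 0.1, the smallest possible; 0.3 adjusted over 3 measures). None of the 15 circles is in the authors' deposited table, which lists 48 lower and 33 higher of 14274 circRNAs. With so small a share listed, 0 of 15 says little about these circles.

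The deposited annotation also counts non-junction reads in the span of a circle, for each library that read the circle. The sources used here do not say how they were defined. If RNase R, which digests linear RNA, was used on these libraries, they do not measure the linear transcript directly. For the exon 4 to exon 6 circle of PPARG the counts were 6122, 4952 and 2195 in calves and 1608, 2845 and 2354 in adults. Scaled per 1000000 of the non-junction reads in the spans of the 1192 circRNAs read in every library, they were 11276, 10916 and 5270 in calves and 4822, 4518 and 4600 in adults. Calves 1 and 2 stood apart from the 4 other libraries, and calf 3 lay near the adults. Calf 3 thus had the most junction reads of PPARG and the fewest scaled non-junction reads of any calf. The exon 3 to exon 6 circle contains this span, and the exon 4 to unlisted segment circle lies within it. Their non-junction reads are therefore largely shared. Not every other PPARG circle overlaps this span.

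As a ratio, the exon 4 to exon 6 circle had 3.59, 5.05 and 16.9 junction reads per 1000 non-junction reads in calves and 8.71, 4.57 and 3.40 in adults. The ages overlapped, and calf 3 was the highest. The log2 ratio, with each library centred on its median, changed by -0.45 ± 0.53 (SE, 95% interval -1.58 to 0.67; limma adjusted p = 0.741). The changes for the exon 3 to exon 6 circle and the exon 4 to unlisted segment circle were -0.10 (-1.32 to 1.11) and -0.21 (-1.54 to 1.11), with limma adjusted p of 0.953 and 0.916. These intervals hold both 0 and a fall as large as that of the junction reads of the gene, so they do not show that the ratios were alike. The sign of each of these changes turned in at least 1 fit without 1 library. Over 1070 circRNAs 0.0935% passed this limma test, and 148 were at an unadjusted p under 0.05, of which 0 were these circles. For the PPARGC1A circle novel_circ_0011728, non-junction reads numbered 744, 543 and 642 in calves and 37 in adult 1. Its ratio was 17.5, 22.1 and 23.4 per 1000 in calves and 135 in adult 1. So in the single adult that read the circle, non-junction reads were further below the calves than junction reads, and with 1 adult library there is no test.

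**Figure D3:**
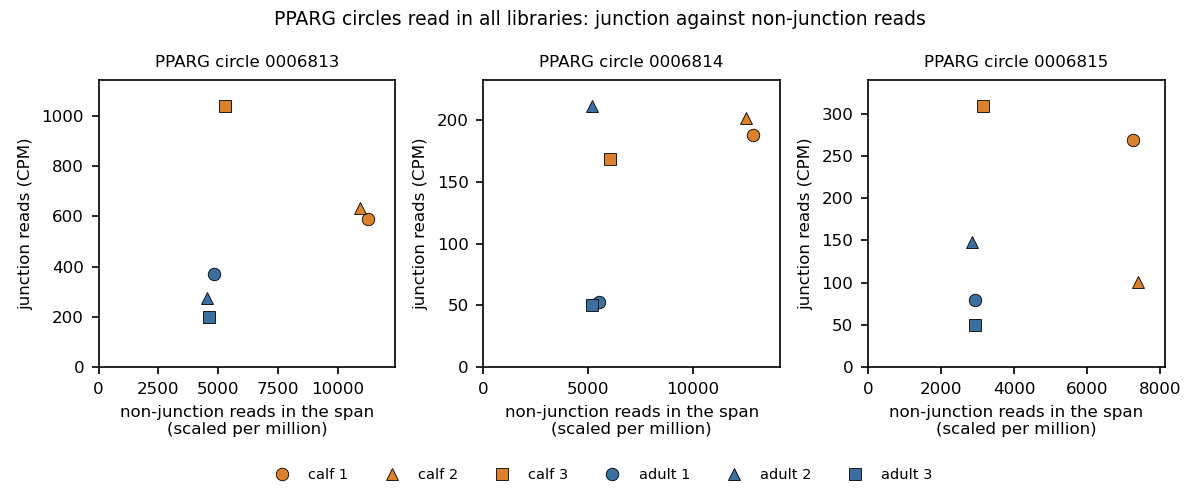
Junction reads (CPM) against scaled non-junction reads in the span for the 3 PPARG circles read in all libraries, with 1 point per library (orange calf, blue adult). In the panel of novel_circ_0006813, calves 1 and 2 lie at the right, at 11276 and 10916, while calf 3 lies above the adults at 5270.

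The receptor's partners and coregulators showed no called change. Of 21 such genes 16 gave a circle and 2 were tested, NCOA6 and NCOR1. In either direction 0 passed, beside 6.54% of all host genes as lower and 5.84% as higher. NCOA6, a coactivator of nuclear receptors, had 36, 22 and 14 reads in calves and 16, 21 and 16 in adults (log2 change -0.53 ± 0.38 SE, edgeR adjusted p = 0.403). NCOR1, a corepressor, had 16, 14 and 4 reads in calves and 9, 18 and 13 in adults (edgeR adjusted p = 0.902). RXRA, a retinoid X receptor that pairs with PPARG, had 4, 6 and 3 reads in adults and 0 in every calf, and was not tested. It was named with its values seen. Of the 14 untested genes of this list with a circle, 2 were read in calves only, 5 in adults only and 7 at both ages. PPARGC1B, for example, had 3, 2 and 0 reads in calves and 0 in every adult.

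The 23 symbols listed for other transcription factors in fat cell formation hold ZNF423 under 2 names. Of these, 14 gene entries gave a circle and 3 were tested, with 1 lower and 0 higher (6.54% and 5.84% of all host genes). ZEB1, a zinc-finger factor, had 387, 419 and 420 reads in calves and only 155, 217 and 217 in adults (log2 change -1.15 ± 0.21 SE, edgeR adjusted p = 0.00392). NFIB and TCF7L2 had log2 changes of -0.08 ± 0.33 and 0.00 ± 0.30 (SE) and did not pass (edgeR adjusted p = 0.906 and 0.994). The entry tested for TCF7L2 is 1 of 2 under that symbol.

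Among 26 lipid storage and metabolism genes linked to PPARG, 15 gave a circle and 3 were tested, with 2 lower and 0 higher (6.54% and 5.84% of all host genes). ACACA, whose enzyme starts fatty acid synthesis, had 40, 43 and 23 reads in calves and 3, 2 and 5 in adults (log2 change -3.44 ± 0.46 SE, edgeR adjusted p = 0.0015; 0.0725 with limma-voom). PDE3B, the phosphodiesterase through which insulin restrains lipolysis, had 27, 42 and 43 reads in calves and 10, 20 and 5 in adults (-1.77 ± 0.41 SE, edgeR adjusted p = 0.0129). The call on PDE3B was lost without calf 2 (edgeR adjusted p = 0.0693). CD36, the fatty acid transporter, had 34, 50 and 56 reads in calves and 90, 76 and 105 in adults, the opposite direction to PPARG, and did not pass (0.87 ± 0.27 SE, edgeR adjusted p = 0.0535). It passed without calf 3 (0.0379) and without adult 2 (0.0441).

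Of 30 partners and targets of PGC-1α, 17 gave a circle and 1 was tested, with 1 lower and 0 higher (6.54% and 5.84% of all host genes). HADHA, a subunit of the enzyme complex of mitochondrial fatty acid oxidation, had 25, 27 and 19 reads in calves and 10, 11 and 9 in adults (log2 change -1.32 ± 0.35 SE, edgeR adjusted p = 0.0274). This call was lost without calf 1, calf 2, adult 1 or adult 2 (edgeR adjusted p 0.0602 to 0.109), with no filter on low counts (0.14), and with DESeq2 (0.112) or limma-voom (0.0551). Of the 16 untested genes of this list with a circle, 4 were read in calves only, 2 in adults only and 10 at both ages. Of these, UCP1 and PRKAA2 were picked after their values were seen. PRKAA1 and ACADL, given further below, had higher means in adults. UCP1 had 6, 8 and 6 reads in calves and 0 in every adult, at least 2.44-fold lower in adults against the same floor. This bound takes no account of single reads that a 0 could hide in each of its 3 circles. PRKAA2, the gene of a catalytic subunit of the energy sensor AMPK, had 22, 8 and 16 reads in calves and 0, 3 and 0 in adults. Over the 4 lists, 9 host genes were tested, 4 were lower and 0 higher (6.54% and 5.84% of all host genes), with a median log2 change of -0.53 against 0.01 over all 719. ACACA, PDE3B and HADHA each had an adult library under 10 reads and reached the filter through the calves, which favours a fall among the genes tested. The falls of ZEB1, ACACA, PDE3B and HADHA were also known when the lists were written. These counts are therefore not independent evidence of a direction.

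**Figure D4:**
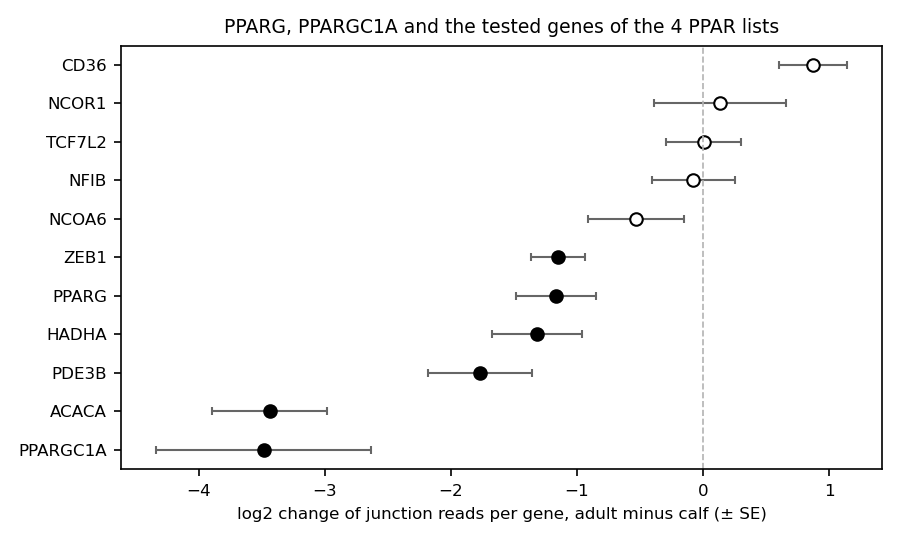
Log2 change of junction reads per gene, adult minus calf, with SE, for PPARG, PPARGC1A and the 9 tested genes of the 4 lists; filled points passed the edgeR test at an adjusted p under 0.05. PPARG at -1.17 lies beside ZEB1 at -1.15, while CD36 is at 0.87.

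The host genes whose pattern over the 6 libraries was most like that of PPARG were ARFIP1, RNF216, GARRE1, CDK8 and EPB41L5. Likeness was the root mean square difference of log2(CPM + 10), each gene centred on its mean. It was 0.22 to 0.30 for these 5, against a median of 0.84 over 718 host genes. The 5 were chosen on the same reads that the edgeR test used, so its outcome for them is not independent evidence. Of all host genes 6.54% passed as lower. RNF216, a ubiquitin ligase gene, was the only one of the 5 that passed (61, 62 and 70 reads in calves, 30, 43 and 29 in adults; edgeR adjusted p = 0.0162, and 0.0679 without adult 1). CDK8, the kinase of the Mediator complex, had 58, 64 and 57 reads in calves and 38, 45 and 24 in adults (edgeR adjusted p = 0.0639). For PPARGC1A the nearest were ZNF550, CACHD1, DHRS7, TM6SF1 and PLA2G2D4, but at differences of 1.27 to 1.43 (median 2.57). These 5 all passed as lower (edgeR adjusted p 0.00248 to 0.0493), with the same limit on independence. The calls on CACHD1, DHRS7 and TM6SF1 were lost with limma-voom (adjusted p 0.102 to 0.18). Of the 6 fits without 1 library, the call was lost in 2 for ZNF550 and 1 for CACHD1. It was lost in 5 for DHRS7, 4 for TM6SF1 and 0 for PLA2G2D4. ZNF550, a zinc-finger gene, had 43, 56 and 35 reads in calves and 21, 11 and 2 in adults.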

How the data were processed

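Junction reads were taken from the table the authors deposited, which per the file headers holds a whole-number count for each circRNA and library. Its columns headed TPM hold CPM, as deposited by the authors, with no length term. The authors' deposited comparison gives log2 fold changes and adjusted p-values, and was used only to look up the members. Lengths in bases are plain scores of each circRNA as the authors deposited them. Per the submitters' processing notes, the tools included Cufflinks, TopHat, TopHat2 2.0.14 and Trim Galore. The circRNA caller and the build: not given in the sources used here. All 6 libraries were assigned to their age from their titles, and 0 per-sample columns remained without a library.

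Counts were compared with edgeR 4.0.16 (quasi-likelihood test, filterByExpr, TMM factors, R 4.3.3), per circRNA (663 tested) and summed per host gene over circRNAs of 1 gene (719 tested). P-values were adjusted by Benjamini-Hochberg over all features tested, with a threshold of 0.05. The SE was taken from the F statistic. Ratios were tested with limma 3.58.1 on log2 values with a pseudocount of 0.5, over circRNAs read in every library whose mean non-junction count was 10 or more. DESeq2 1.42.0 and limma-voom were alternatives. Scripts were tested on simulated data. Circles with at least 20 reads or past the threshold were named, as were list genes past the threshold and the 3 most read tested genes of each list. Some circles under 20 reads were also named, with their values seen. Members, lists and rules were chosen with earlier results of these data known. Floors cover counting error only, not single reads that a 0 can hide, and the limma intervals rest on the spread between libraries.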

Additional observations from a re-analysis of the deposited data

How the results depend on the processing

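PPARG and PPARGC1A kept their direction in all alternatives that gave a value. Without 1 library, the log2 change ranged from -1.34 to -0.91 for PPARG and from -7.32 to -2.84 for PPARGC1A. Neither passed without calf 3 and adult 3 together (-0.66 and -2.68), PPARG did not pass without its most read circle (-1.02), and PPARGC1A did not with limma-voom (-4.18). PPARGC1A without its most read circle was not tested, since too few reads were left. Of the 2 circles past the threshold, 0 to 1 passed without 1 library, 0 without calf 3 and adult 3, and 1 each with limma-voom, DESeq2, no filter, or a mean of at least 10 counts. The circle that passed differed by setting. It was novel_circ_0006813 with limma-voom and with a mean of at least 10 counts, where the other was not tested. With DESeq2 and with no filter it was novel_circ_0011728. Over all circRNAs 126 passed, with 71 to 138 without 1 library and 202 without a filter; over host genes 89 passed, with 55 to 123 without 1 library (55 without calf 2). Of the 4 list genes, 2 passed without calf 3 and adult 3, and 2 with limma-voom. Values near 0 changed sign: the ratio of novel_circ_0006813 ranged from -0.73 to 0.090 without 1 library, that of novel_circ_0006814 from -0.73 to 0.24 (0.023 with a pseudocount of 1) and that of novel_circ_0006815 from -0.90 to 0.41. NCOR1 ranged from -0.25 to 0.45 (-0.22 without calf 3 and adult 3), NFIB from -0.31 to 0.20, and TCF7L2 from -0.29 to 0.23 (-0.0084 with total reads, -0.0069 without a filter, -0.013 with a mean of at least 10 counts). The causes were not tested. Numbers of circles per library differed by -1.17 to -0.17 for PPARG and -2.33 to -1.67 for PPARGC1A without 1 library, and the share of the most read circle by -8.86 to -0.036 percentage points.

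The labels do not say whether libraries of the same number are paired. Deviations from the age means correlated at -0.04, 0.10 and 0.12 for numbers 1, 2 and 3. Not every library correlated best with its own number. With 3 libraries per age these correlations cannot decide whether the numbers mark a pair or a batch. Calf 3 and adult 3 had the highest HSPA1A shares, 4.44% and 1.40%. With the replicate number as a block, the log2 changes were -1.16 for PPARG (edgeR adjusted p = 0.0472) and -3.64 for PPARGC1A (0.0138), 0 of the 2 circles passed (adjusted p 0.0989 and 0.142), and 56 circRNAs passed.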

Other observations

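Among the lipid genes linked to PPARG, 12 gave a circle but too few reads for the filter, so they have no test. Of these, 4 were read in calves only, 4 in adults only and 4 at both ages. The genes named here were picked after their values were seen. ADIPOQ, the adiponectin gene, had 2, 6 and 4 reads in calves and 4, 0 and 0 in adults (libraries 1, 2 and 3 in order). PLIN1, which codes for the coat protein of the lipid droplet, had 3, 4 and 8 reads in calves and 0, 3 and 0 in adults. ACSL1, an acyl-CoA synthetase gene, had 4, 8 and 2 reads in calves and 0 in every adult. Its calf mean was 1.68-fold the floor of 3 reads per adult library, single reads hidden in its 4 circles aside. Calf 3, with 2 reads, lay under that floor (56.2 against 72.5 CPM), so this does not bound the fall for every calf. LPL, the lipoprotein lipase gene, had 6, 0 and 7 reads in calves and 0 in every adult. DGAT2, whose enzyme makes triglyceride, had 2, 4 and 0 reads in adults and 0 in every calf. MGLL, the monoglyceride lipase gene, had 0, 5 and 2 reads in calves and 2, 12 and 2 in adults. Among the partners and targets of PGC-1α, PRKAA1, the gene of the other catalytic subunit of AMPK, had 2, 3 and 2 reads in adults and 0 in every calf. ACADL, a mitochondrial acyl-CoA dehydrogenase gene, had 2, 6 and 0 reads in calves and 2, 23 and 16 in adults.

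A circRNA with no annotated gene lies within the annotation's intron 1 of PPARG, downstream of exon 7, on the opposite strand (novel_circ_0006806, chromosome 22, 57367959 to 57368264), with 2 reads in adult 2 alone.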
